A study of Arabidopsis thaliana with 15 samples.

Results

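The genes described here were those whose expression in the aboveground parts of Arabidopsis was higher at the third of a set of increasing bacterial densities than at the first, and differed little between the third and the fourth. They were found in the table of read counts per gene of 15 RNA-seq libraries. Counts were scaled by the library total to CPM (counts per 1000000) and averaged by group. Of 32833 genes, 14388 had a mean of at least 5 CPM over the libraries, and 404 of these had a log2 ratio of W7 to W5 of at least 0.7. In 92 of them the log2 ratio of W8 to W7 lay within 0.3 of 0, and in 90 of those each W7 library was above each W5 library. These 90 are called the plateau genes. They were chosen by their W5, W7 and W8 values, so their levels at those densities are a description, and any count of calls that uses those libraries supports nothing.

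All plants were Arabidopsis thaliana of the accession Col-0, 6 weeks old, grown on ground zeolite in Magenta boxes, and the aboveground parts were taken 96 h after spraying. The spray held Williamsia sp. Leaf354, a bacterium isolated from leaves, at 100000 (W5), 1000000 (W6), 10000000 (W7) or 100000000 (W8) CFU/ml, or phosphate-buffered saline alone (mock). Each group had 3 libraries, and each library pooled 2 plants from different boxes. The title of the series asks whether the immune response of the plant depends on the density of the bacteria. The densities are those of the sprayed suspension, and the number of bacteria on the leaves was not analysed here.

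Plants short of sugar or energy switch on a shared set of genes through the kinase SnRK1, the plant relative of AMP-activated kinase, and through bZIP transcription factors that act with it. That set includes dark-inducible genes such as the asparagine synthetase ASN1, trehalose-phosphate synthase-like proteins, and F-box and RING proteins that mark other proteins for breakdown. It overlaps in part with the genes of leaf senescence, which are led by NAC transcription factors. Defence against microbes uses other known sets: receptor kinases and WRKY factors, and the salicylic acid genes.

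Library totals ran from 17811560 to 21870246 counts. The 4 leaf markers (RBCS1A, RCA, LHCB1.3 and LHCB2.1) summed to between 34310 and 48465 CPM per library, lowest at W8 (34310 to 38071). The 5 flower markers summed to between 2.13 and 5.49 CPM, and of the 4 root markers RHD6 and EXPA7 were at 0 in every library, COBL9 reached at most 0.143 CPM and PYK10 ran from 119 to 204 CPM. In whole aboveground parts, fewer cells of a type and less RNA per cell cannot be told apart. Mock replicate 3 stood apart from the other mock libraries for the plateau genes. It was above both of them in 76 of 90 plateau genes, against 51.3% of all 19404 genes tested. It was at least as high as the lowest W7 library in 8, a count with no share of all genes beside it. Counts against mock are therefore also given without mock replicate 3, as are the values of genes whose call that library changed.

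All 90 plateau genes had enough counts to be tested. Their mean levels over the libraries ran from 5.28 to 521 CPM, with a median of 31.0. By the choice, the log2 ratio of W7 to W5 ran from 0.70 to 2.18, with a median of 0.92, a 1.89-fold difference, and the highest was 4.52-fold. Just inside the limit of 0.7 were AT1G32920, the MAP kinase kinase gene MKK9 and AT3G26510, all at 0.70. Just outside were AT2G25200, AT1G22190 and RSH2, all at 0.69. At the other limit, AT5G57910, AT1G25550 and XTH30 (each 0.30 for W8 to W7) fell just inside, and WRKY28 (0.30), AT1G02620 (0.30) and AT3G03265 (-0.31) just outside. The genes left out only because W7 and W5 libraries overlapped were NAC019 and AT4G04223.

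**Figure D1:**
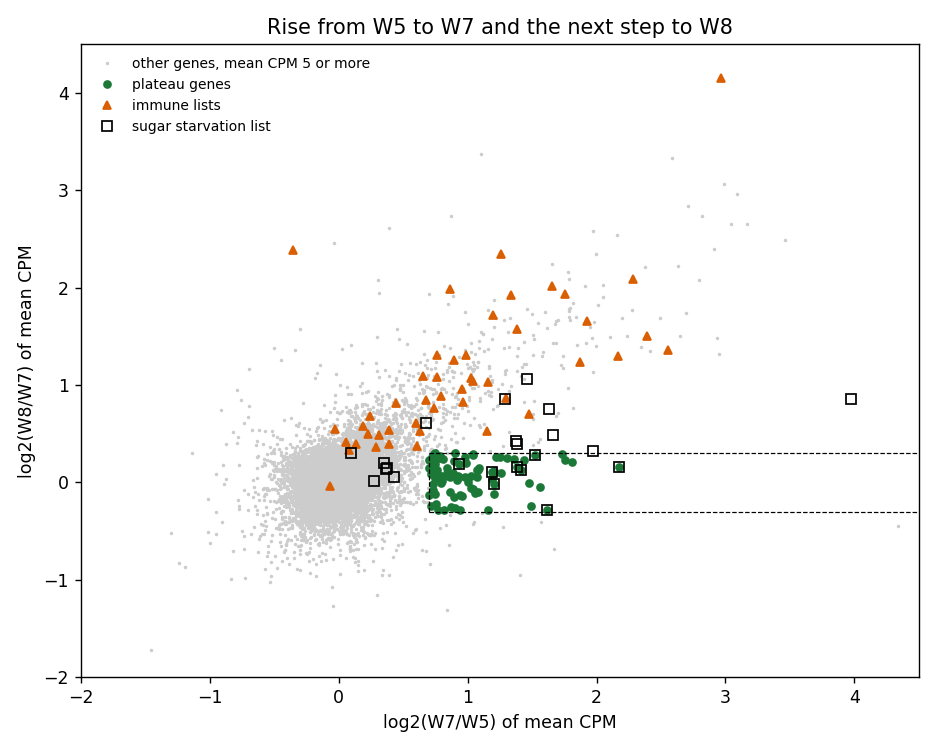
Each point is a gene with a mean of at least 5 CPM, placed by its log2(W7/W5) (horizontal) and its log2(W8/W7) (vertical) of group mean CPM, with the 90 plateau genes in green inside the dashed limits that chose them, the immune lists (pattern-triggered immunity, salicylic acid and receptor kinases) as triangles and the sugar starvation list as squares. To the right of 0.7, 264 genes whose W7 and W5 libraries do not overlap lie above the limits and 12 below, no triangle lies within them, and 2 genes lie outside the axes.

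The comparison of W6 with mock was not used by the choice, beyond the minimum on the mean level, although all 15 libraries entered its estimate of the spread. At W6, 54 of the 90 plateau genes (60%) were higher than in mock and 0 were lower (edgeR quasi-likelihood test, adjusted p under 0.05 over all 19404 genes). Among all genes tested, 0.943% were called higher and 0.34% lower. Genes counted below as having risen at W6 are those called higher. Of the 36 plateau genes not called, 33 had a W6 mean above the mock mean. The share of all genes with that order is not given here. At an unadjusted p under 0.05, 72 plateau genes were higher and 0 lower. The share of all genes at that p is not given here, so this count is a description only. DESeq2 called 59 plateau genes higher and 0 lower, where it called 333 genes in all, higher or lower. The median log2 fold change of the plateau genes was 0.72, with a range of -0.32 to 2.73, against a median of -0.01 over all genes. All 3 W6 libraries lay above all 3 mock libraries in 64 plateau genes, where 9.69% of all genes tested had this order. Without mock replicate 3, 67 plateau genes were called higher, with a median of 0.86. Those 67 included all 54, and 13 more. Over all genes, 469 were then called, higher or lower, against 249 with all libraries.

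**Figure D2:**
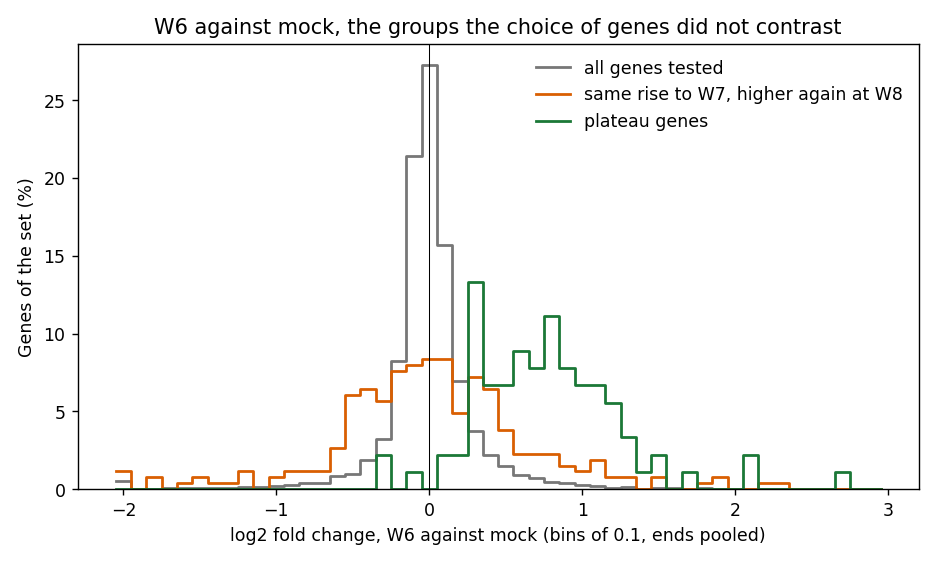
The horizontal axis is the log2 fold change of W6 against mock in bins of 0.1, with the ends pooled, and the vertical axis is the percentage of genes of each set in a bin. The plateau genes centre on a median of 0.72, all genes tested on -0.01, and the genes with the same rise to W7 that were higher again at W8 on 0.01, or 0.44 without mock replicate 3.

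The plateau genes with the largest fold change at W6 were AT2G20670, AT5G19120 and AT1G80440. AT2G20670, a DUF506 family gene annotated as a putative sugar phosphate exchanger, was at 38.1, 34.9 and 38.6 CPM in mock, 109, 106 and 124 at W5, 240.5, 275 and 247 at W6, 351, 343 and 346 at W7 and 288, 248 and 319 at W8. Its W6 libraries lay above all mock and W5 libraries and below all W7 libraries, W8 lay below W7, and with n = 3 per group W6 differed from mock by 2.73 ± 0.09 (log2, SE, adjusted p = 4.26e-13). AT1G80440, annotated as a KISS ME DEADLY F-box protein (KMD1) that targets type-B response regulators of cytokinin signalling for degradation, was at 54.1, 53.2 and 56.1 CPM in mock, 133, 115 and 131 at W5, 206, 252 and 248 at W6, 301, 309 and 264 at W7 and 277, 283 and 306 at W8. Mock, W5, W6 and W7 did not overlap, W8 lay among the W7 values, and W6 differed from mock by 2.07 ± 0.086 (log2, SE, adjusted p = 1.51e-11). AT5G19120, which encodes an aspartyl protease family protein, was at 23.9, 21.1 and 28.9 CPM in mock, 59.2, 51.8 and 71.3 at W5, 102, 123 and 109 at W6, 143, 143 and 135 at W7 and 131, 118 and 138 at W8. It too was ordered mock, W5, W6, W7 with no overlap (2.14 ± 0.12 on the log2 scale, SE, adjusted p = 3.18e-08 for W6 against mock), and W8 overlapped W6 and W7.

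The 250 bases upstream of the annotated start are shown for these genes, whose W6 fold changes were the largest among the plateau genes. Those of the low-energy genes ASN1 and AT3G15450, described below, are shown with them. The sequences are from RefSeq, build TAIR10.1, each written 5′ to 3′ on the strand of its gene, and capitals mark matches to a motif on either strand (TATCCA reads TGGATA and TGACG reads CGTCA on the other strand).
AT2G20670, minus strand, chr2:8913748-8913997: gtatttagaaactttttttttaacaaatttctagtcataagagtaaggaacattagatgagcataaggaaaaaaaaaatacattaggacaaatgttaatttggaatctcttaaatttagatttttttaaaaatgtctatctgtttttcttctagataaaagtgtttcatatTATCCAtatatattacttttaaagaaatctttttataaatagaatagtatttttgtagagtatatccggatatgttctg
AT1G80440 (KMD1), plus strand, chr1:30241202-30241451: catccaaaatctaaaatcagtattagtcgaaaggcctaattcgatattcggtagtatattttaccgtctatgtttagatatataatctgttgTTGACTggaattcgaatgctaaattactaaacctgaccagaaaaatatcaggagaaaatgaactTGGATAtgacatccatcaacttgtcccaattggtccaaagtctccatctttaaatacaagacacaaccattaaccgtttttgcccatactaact
AT5G19120, plus strand, chr5:6414238-6414487: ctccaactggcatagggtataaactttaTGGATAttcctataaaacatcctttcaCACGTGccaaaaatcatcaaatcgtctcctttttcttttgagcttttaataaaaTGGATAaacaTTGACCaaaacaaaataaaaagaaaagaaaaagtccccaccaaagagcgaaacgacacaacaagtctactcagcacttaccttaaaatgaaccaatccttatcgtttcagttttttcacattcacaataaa
ASN1 (AT3G47340), minus strand, chr3:17441432-17441681: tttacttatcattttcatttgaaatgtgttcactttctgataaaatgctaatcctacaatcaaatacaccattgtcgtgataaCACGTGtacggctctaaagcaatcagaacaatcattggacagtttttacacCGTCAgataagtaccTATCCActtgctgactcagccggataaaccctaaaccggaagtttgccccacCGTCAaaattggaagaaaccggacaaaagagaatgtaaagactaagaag
AT3G15450, plus strand, chr3:5212734-5212983: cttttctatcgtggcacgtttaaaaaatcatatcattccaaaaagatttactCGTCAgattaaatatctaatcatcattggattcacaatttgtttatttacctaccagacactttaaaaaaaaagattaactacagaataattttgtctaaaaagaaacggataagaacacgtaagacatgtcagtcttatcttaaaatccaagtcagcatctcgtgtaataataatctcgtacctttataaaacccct
The sugar-starvation element TATCCA is present in the first 4 and absent from the AT3G15450 sequence. The ASN1 stretch also holds CACGTG and TGACG.

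Motifs were searched on both strands in the window from 250 bases before to 50 bases after each start, for the 90 plateau genes and for 19280 genes tested that had a window. TATCCA was found in 29 of 90 plateau genes (32.2%) and in 16.6% of all windows. It was found in 38.9% of the 54 genes called at W6 and 22.2% of the 36 others. CACGTG, the G-box, was found in 12.2% against 8.8%, and TGACG, the core of TGA factor sites, in 31.1% against 23.8%. The W-box forms TTGACC and TTGACT, known as WRKY sites, were found in 11.1% and 16.7%, against 14.3% and 21.7% of all windows. In the genes called at W6 and the others, TTGACT was found in 25.9% and 2.78%, and TTGACC in 14.8% and 5.56%. GCCGCC was found in 1.11% against 2.71%, AAAATATCT in 3.33% against 3.05%, and ACGCGT in 2.22% against 2.3%. None of these motifs is contained in another, though neighbouring matches can share bases. The median G and C content was 31.5% in plateau genes and 32% in all windows. These are descriptions of letters in a window, with no test.

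Of the 8 plateau genes of energy and sugar signalling, 2 rose at W6, TPS8 and bZIP1, and 4 were called without mock replicate 3. TPS8, a trehalose-phosphate synthase-like protein, was at 95.1, 96.7 and 127 CPM in mock, 128, 124 and 138 at W5, 180.3, 229.7 and 212 at W6, 333, 343 and 339 at W7 and 385, 376 and 373 at W8. The groups W5, W6, W7 and W8 did not overlap, and W6 rose against mock by 0.92 ± 0.087 (log2, SE, adjusted p = 2.03e-06). bZIP1, a transcription factor that acts with SnRK1 in the low-energy response, was at 8.51, 13.3 and 19.8 CPM in mock, 20.6, 18.5 and 20.4 at W5, 30.5, 37.7 and 37.6 at W6, 44.6, 48.5 and 42.5 at W7 and 50.7, 47.2 and 47.9 at W8. All its W6 libraries lay above all mock libraries (1.301 ± 0.20 on the log2 scale, SE, adjusted p = 0.00484), and when W6 and mock were fitted alone the adjusted p was 0.292.

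The other 6 energy genes did not pass with edgeR, and in all 6 mock replicate 3 was the highest mock library. DESeq2 called AT3G15450 and KING1 among them (adjusted p = 0.00452 and 0.0418). AT3G15450, an aluminium-induced family protein whose gene is used as a marker of low sugar, had the largest W7 to W5 ratio of the plateau genes, at 36.8, 54.6 and 159 CPM in mock, 119, 106 and 120.4 at W5, 215, 344 and 294 at W6, 545, 585 and 430.4 at W7 and 545, 559 and 635 at W8. Mock replicate 3 was above all W5 libraries and below all W6 libraries. W6 differed from mock by 1.74 ± 0.42 (log2, SE, adjusted p = 0.109), and without mock replicate 3 by 2.57 (adjusted p = 0.000218), and it also passed with robust=FALSE (adjusted p = 0.0181). ASN1, the dark-inducible asparagine synthetase that sugar represses, was at 17.2, 18.1 and 66.1 CPM in mock, 15.6, 12.9 and 18.4 at W5, 17.1, 37.1 and 29.2 at W6, 44.5, 45.0 and 35.7 at W7 and 39.0, 40.5 and 57.2 at W8. Its mock replicate 3 was above every other library, W6 overlapped mock, and the fold change was -0.31 ± 0.47 (log2, SE, adjusted p = 0.856). DYL1, a dormancy-associated protein gene also called DRM1, was at 23.8, 38.8 and 54.7 CPM in mock, 41.6, 43.4 and 42.8 at W5, 50.1, 103 and 78.5 at W6, 128, 147 and 91.2 at W7 and 144, 147 and 154 at W8. Mock replicate 3 overlapped W6 there, with a fold change of 0.94 ± 0.30 (log2, SE, adjusted p = 0.271).

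The remaining energy genes were the SnRK1 subunit genes and a transporter. AKINBETA1, a beta subunit, was at 30.4, 27.1 and 39.1 CPM in mock, 33.5, 32.9 and 36.5 at W5, 32.4, 51.6 and 42.6 at W6, 68.5, 70.6 and 56.9 at W7 and 71.0, 69.1 and 82.6 at W8. Its W6 libraries overlapped both mock and W5, and its W7 and W8 libraries lay above all others (0.35 ± 0.15 on the log2 scale, SE, adjusted p = 0.444 for W6 against mock). KING1, annotated as a gamma subunit, was at 38.5, 39.4 and 44.2 CPM in mock, 45.7, 42.0 and 44.2 at W5, 46.4, 64.0 and 50.2 at W6, 75.5, 76.8 and 68.1 at W7 and 83.9, 73.1 and 84.6 at W8. W6 lay above mock in all libraries without passing the edgeR test (0.35 ± 0.094 on the log2 scale, SE, adjusted p = 0.0936), and it passed without W6 replicate 1 (adjusted p = 0.024). STP14, a sugar transporter, differed by 0.44 ± 0.13 (log2, SE, adjusted p = 0.141), and by 0.57 without mock replicate 3 (adjusted p = 0.0277).

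**Figure D3:**
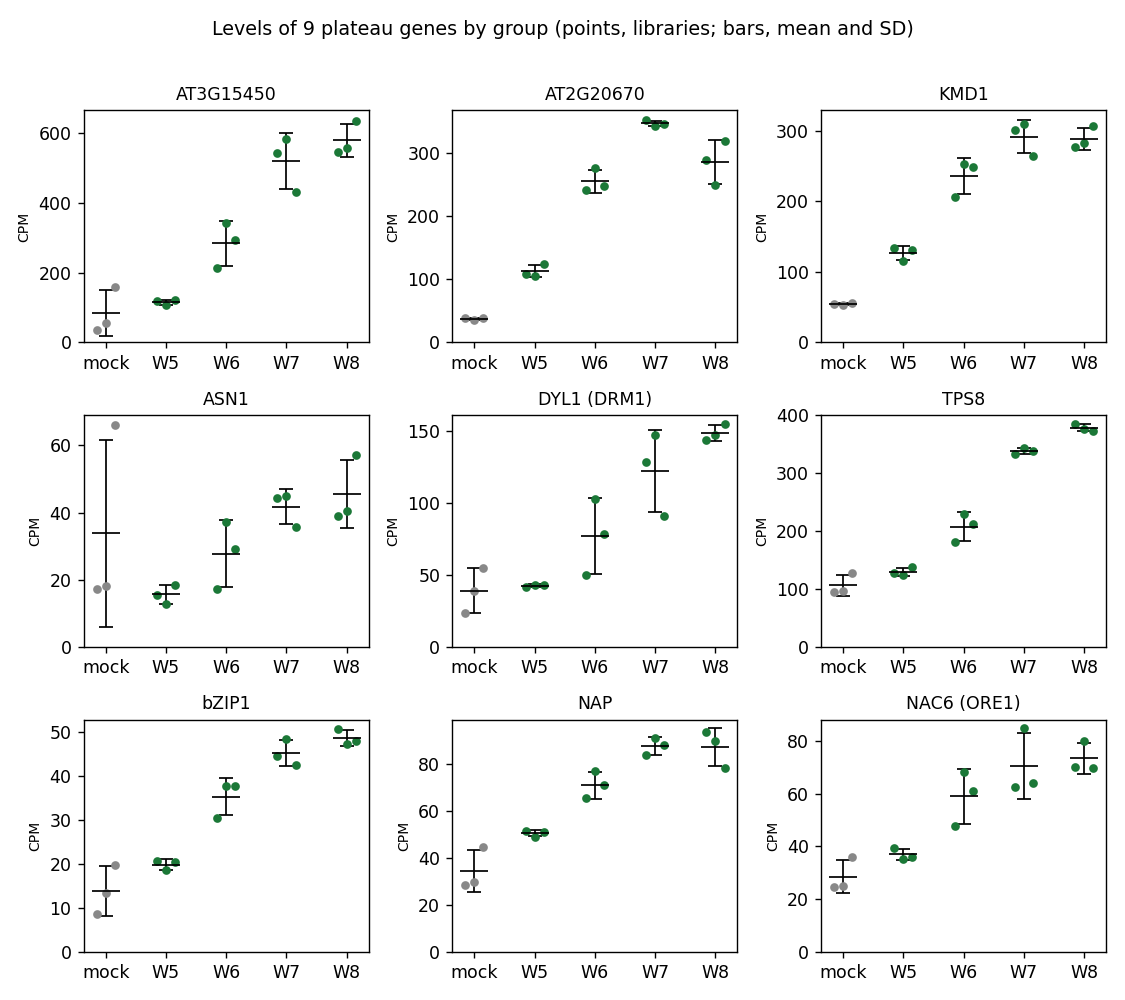
Each panel shows CPM (vertical, from 0) of 1 plateau gene in mock, W5, W6, W7 and W8, with points for the 3 libraries and bars for mean and SD. AT3G15450 and ASN1 have 1 mock library far above the others (159 and 66.1 CPM), while the highest mock libraries of KMD1 and AT2G20670 are at 56.1 and 38.6 CPM.

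The DUF506 family had 3 members among the plateau genes, and all 3 passed the test at W6. Beside AT2G20670, AT4G32480 was at 7.28, 4.79 and 5.96 CPM in mock, 6.44, 8.91 and 10.5 at W5, 13.1, 16.8 and 14 at W6, 19.4, 18.0 and 20.3 at W7 and 15.1, 14.7 and 17.6 at W8. Its W6 libraries lay above all mock and W5 libraries (1.25 ± 0.16 on the log2 scale, SE, adjusted p = 0.000176). AT2G38820, annotated with the same domain, was at 9.79, 10.5 and 13.3 CPM in mock, 13.7, 10.8 and 11.7 at W5, 14.6, 16.3 and 15.8 at W6, 20.3, 20.1 and 19.6 at W7 and 19.6, 18.3 and 19.1 at W8. W6 lay above mock in all libraries (0.44 ± 0.10 on the log2 scale, SE, adjusted p = 0.0452), but the call was lost without mock replicate 1 or 2 or any 1 W6 library, with an adjusted p of up to 0.233. It was also lost with robust=FALSE (adjusted p = 0.0622) and when W6 and mock were fitted alone (adjusted p = 0.146).

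Genes of protein turnover were a large group, of which 10 of 12 rose at W6 (11 without mock replicate 3), with a median log2 fold change of 1.15. It held 7 RING finger genes, a class that includes many ubiquitin ligases, of which 5 rose. AT5G22920, a CHY and RING zinc finger gene, was at 17.4, 20.2 and 20.6 CPM in mock, 21.7, 21.8 and 23.7 at W5, 38.1, 47.1 and 44.8 at W6, 85.3, 75.2 and 75 at W7 and 92.6, 82.9 and 96.5 at W8. W6 lay between the lower and the higher groups with no overlap (1.12 ± 0.09 on the log2 scale, SE, adjusted p = 2.05e-07 against mock). RMA1, a membrane-anchored ubiquitin ligase, was at 17.8, 16.8 and 19.5 CPM in mock, 30.9, 28.6 and 30.7 at W5, 44.6, 52.5 and 47.7 at W6, 52.8, 56.9 and 49.2 at W7 and 42.6, 44.9 and 42.7 at W8. Its W6 libraries overlapped W7, its W8 libraries were below all W7 libraries, and W6 rose against mock by 1.38 ± 0.074 (log2, SE, adjusted p = 9.49e-10); 91% of its exon bases are its own, so its counts are uncertain.

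PIT1 (AT4G02075) was at 6.15, 5.82 and 8.41 CPM in mock, 7.52, 7.36 and 6.54 at W5, 12.6, 13.6 and 12.6 at W6, 20.1, 19.0 and 19.1 at W7 and 22.8, 23.2 and 22.2 at W8. W6 lay above mock and W5 and below W7 with no overlap (0.89 ± 0.11 on the log2 scale, SE, adjusted p = 3.89e-05). AT1G02610, another RING-type gene, was at 6.58, 6.31 and 12.6 CPM in mock, 9.83, 9.09 and 10.3 at W5, 16.3, 20.6 and 22.5 at W6, 32.4, 35.2 and 31.3 at W7 and 36.0, 40.7 and 39.0 at W8. All W6 libraries lay above all mock libraries (1.18 ± 0.19 on the log2 scale, SE, adjusted p = 0.00607), with an adjusted p of 0.261 when W6 and mock were fitted alone. The RING genes that did not pass were ATL15 (0.76 ± 0.23 on the log2 scale, SE, adjusted p = 0.173) and AT2G18670 (0.30 ± 0.097 on the log2 scale, SE, adjusted p = 0.227), and ATL15 had 0.0374 without mock replicate 3. AT5G43190, a kelch-repeat gene, rose by 0.65 ± 0.099 (log2, SE, adjusted p = 0.000611), and AT2G24240, a BTB domain gene, by 1.19 ± 0.14 (log2, SE, adjusted p = 3.72e-05).

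Transcription and RNA-binding regulators made up 19 plateau genes, of which 12 rose at W6 (15 without mock replicate 3), with a median log2 fold change of 0.69. The senescence NAC genes NAP and NAC6 (ORE1) were among them. NAP was at 28.5, 29.8 and 44.6 CPM in mock, 51.6, 49.0 and 51.1 at W5, 65.4, 77.0 and 71.0 at W6, 83.8, 91.4 and 88.3 at W7 and 93.9, 90.2 and 78.4 at W8. Its W6 libraries lay above all mock and W5 libraries and below all W7 libraries (1.01 ± 0.12 on the log2 scale, SE, adjusted p = 0.000129). NAC6 was at 24.6, 25.1 and 35.9 CPM in mock, 39.5, 35.3 and 36.0 at W5, 47.8, 68.1 and 61.0 at W6, 62.3, 85.0 and 64.1 at W7 and 70.2, 80.1 and 69.7 at W8. W6 lay above mock in all libraries and overlapped W7 (1.01 ± 0.16 on the log2 scale, SE, adjusted p = 0.00471), or adjusted p = 0.0527 when W6 and mock were fitted alone.

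NAC3, a NAC gene induced by abscisic acid and jasmonate, did not follow them in the test. It was at 3.48, 3.37 and 36.7 CPM in mock, 9.64, 8.44 and 12.2 at W5, 16.4, 19.3 and 19.6 at W6, 25.4, 28.8 and 31.3 at W7 and 25.3, 26.6 and 20.3 at W8. Mock replicate 3 was the highest of all libraries and the other mock libraries the lowest, and W6 against mock gave 0.31 ± 0.68 (log2, SE, adjusted p = 0.911), and 2.36 without mock replicate 3 (adjusted p = 8.43e-08). The zinc finger repressor gene ZF2 had 0.501 with all libraries and 0.00019 without mock replicate 3 (adjusted p values).

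TEM1, a repressor of flowering of the AP2/B3 class, and AT1G25550, a myb-like factor gene, are neighbours on chromosome 1 with 0 genes between them. TEM1 was at 55.1, 61.1 and 73.3 CPM in mock, 110.4, 92.6 and 107 at W5, 156, 159 and 167 at W6, 164, 179.8 and 167 at W7 and 142, 147 and 142 at W8. W6 and W7 overlapped there, and W8 lay below W7 in all libraries (1.304 ± 0.082 on the log2 scale, SE, adjusted p = 8.23e-09 for W6 against mock). AT1G25550 was at 54.5, 54.2 and 59.9 CPM in mock, 71.3, 70.4 and 67.0 at W5, 93.8, 102 and 107 at W6, 133, 130.0 and 128 at W7 and 151, 163 and 166 at W8. Each density lay above the one before with no overlap (0.80 ± 0.06 on the log2 scale, SE, adjusted p = 8.64e-08). The plateau genes also included BXL2 and AT1G02660, with 1 gene between them.

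BBX14, a B-box zinc finger gene, was at 182, 203 and 189 CPM in mock, 256, 260.1 and 243 at W5, 335, 356 and 350.0 at W6, 453, 436 and 432 at W7 and 439, 460.2 and 437 at W8. W6 stood between W5 and W7 with no overlap (0.82 ± 0.061 on the log2 scale, SE, adjusted p = 8.64e-08), though 87% of its exon bases are its own and its counts are uncertain. Its relative BBX17 rose by 0.87 ± 0.12 (log2, SE, adjusted p = 0.000176). ATCTH, a CCCH zinc finger gene of the type that binds RNA, was at 84.1, 97.9 and 104 CPM in mock, 139, 126 and 132 at W5, 210.1, 224 and 212 at W6, 281, 286 and 261 at W7 and 245, 254 and 269.7 at W8. All densities up to W7 were in order without overlap (1.13 ± 0.071 on the log2 scale, SE, adjusted p = 8.23e-09), and W8 overlapped W7. The other CCCH genes, OZF1 and OZF2, rose by 0.60 ± 0.10 (log2, SE, adjusted p = 0.00188) and 0.78 ± 0.074 (log2, SE, adjusted p = 2.17e-06). BT1, a BTB and TAZ domain gene, was at 12.4, 12.1 and 20.4 CPM in mock, 13.0, 9.28 and 18.5 at W5, 31.1, 22.5 and 20.3 at W6, 42.2, 34.8 and 43.3 at W7 and 36.1, 30.1 and 49.9 at W8; its mock replicate 3 reached the W6 range, and the difference did not pass (0.69 ± 0.30 on the log2 scale, SE, adjusted p = 0.446).

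Of the 7 signalling and stress genes, 3 rose, and 5 were called without mock replicate 3. J8, a DnaJ chaperone gene and the plateau gene with the highest mean level, was at 222, 232 and 299.7 CPM in mock, 396, 352 and 366 at W5, 469, 588 and 571 at W6, 722, 754 and 634 at W7 and 739, 719.8 and 751 at W8. W6 lay above mock and W5 and below W7 in all libraries (1.07 ± 0.098 on the log2 scale, SE, adjusted p = 1.42e-06), and with 78% of exon bases its own the counts are uncertain. AT4G05070, annotated as wound-responsive, was at 75.4, 83.0 and 96.5 CPM in mock, 123, 119 and 121 at W5, 153, 165 and 175 at W6, 205, 212 and 189.5 at W7 and 224, 232 and 219 at W8. The order from mock to W7 had no overlap (0.91 ± 0.072 on the log2 scale, SE, adjusted p = 1.7e-07). HSPRO2, an ortholog of a nematode resistance gene of sugar beet, was at 32.0, 33.6 and 142 CPM in mock, 69.6, 56.5 and 58.7 at W5, 93.9, 121 and 106 at W6, 144, 147 and 166 at W7 and 155, 199 and 189 at W8. Mock replicate 3 was above all W6 libraries and below all W7 libraries, the difference did not pass (0.60 ± 0.45 on the log2 scale, SE, adjusted p = 0.672), and without that library it was 1.64 (adjusted p = 1.44e-06). MKK9, a MAP kinase kinase gene, gave 0.511 with all libraries and 0.000616 without mock replicate 3 (adjusted p values), and STY46, a protein kinase gene, differed by 0.09 ± 0.11 (log2, SE, adjusted p = 0.826).

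Called higher at W6 were 3 of 9 cell wall and glycosyl enzymes and 3 of 10 genes of metabolism and transport. Without mock replicate 3 these were 4 and 5. Among the first, AT3G52060, a glycosyltransferase gene, was at 38.5, 35.5 and 38.7 CPM in mock, 41.6, 44.3 and 44.4 at W5, 63.8, 76.4 and 72.2 at W6, 89.5, 89.0 and 87.4 at W7 and 88.6, 91.6 and 98.6 at W8. W6 lay between W5 and W7 with no overlap (0.87 ± 0.064 on the log2 scale, SE, adjusted p = 7.42e-08; 87% own exon bases, uncertain). XTH30 and AT2G27500, enzymes of cell wall sugars, rose by 0.76 ± 0.16 (log2, SE, adjusted p = 0.0209) and 0.50 ± 0.088 (log2, SE, adjusted p = 0.00315), and neither passed when W6 and mock were fitted alone (adjusted p = 0.113 and 0.0603). XTH30 was also lost without mock replicate 1 or 2 or W6 replicate 2 or 3 (adjusted p of up to 0.167). XTH24 (0.23 ± 0.20 on the log2 scale, SE, adjusted p = 0.725), the beta-xylosidase gene BXL2 (0.34 ± 0.23 on the log2 scale, SE, adjusted p = 0.634) and the beta-glucosidase gene BGLU11 (0.28 ± 0.26 on the log2 scale, SE, adjusted p = 0.741) did not pass.

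In metabolism and transport the 3 that rose were the sulfate transporter gene SULTR1;2 (0.79 ± 0.14 on the log2 scale, SE, adjusted p = 0.00323), the acyl-activating enzyme gene AAE5 (0.66 ± 0.073 on the log2 scale, SE, adjusted p = 1.42e-05) and the hydrolase gene AT1G02660 (0.53 ± 0.11 on the log2 scale, SE, adjusted p = 0.0153). The call of AT1G02660 was lost without mock replicate 1 or 2 or W6 replicate 2 or 3, with an adjusted p of up to 0.118, and when W6 and mock were fitted alone (adjusted p = 0.146). AT5G14120, a major facilitator transporter gene, was at 168, 173 and 182 CPM in mock, 175, 171 and 201 at W5, 195, 242 and 216 at W6, 324, 316 and 346 at W7 and 351, 326 and 355 at W8. W6 lay above mock in all libraries without passing the edgeR test (0.28 ± 0.076 on the log2 scale, SE, adjusted p = 0.105), but it passed with DESeq2 (adjusted p = 0.0277) and without W6 replicate 1 (adjusted p = 0.0285). AT3G60415, annotated in the phosphoglycerate mutase family, was at 3.37, 3.13 and 11.7 CPM in mock, 5.01, 5.95 and 4.29 at W5, 6.19, 3.67 and 5.11 at W6, 5.99, 12.7 and 31.9 at W7 and 16, 28.5 and 17.6 at W8. Its W7 libraries ran from 5.99 to 31.9 CPM, W6 overlapped mock and W5, and W6 differed from mock by -0.32 ± 0.67 (log2, SE, adjusted p = 0.906).

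The other 22 plateau genes had another or no described role, and 18 of them rose at W6 (20 without mock replicate 3), with a median log2 fold change of 0.81. AT2G27830 was at 17.2, 16.6 and 19.9 CPM in mock, 26.5, 25.3 and 26.1 at W5, 34.8, 39.2 and 41.2 at W6, 48.2, 59.3 and 52.9 at W7 and 51.6, 48.8 and 53.1 at W8. W6 lay above W5 and below W7 with no overlap (1.06 ± 0.08 on the log2 scale, SE, adjusted p = 1.02e-07). AT5G50450, a MYND zinc finger gene, was at 9.04, 11.3 and 14 CPM in mock, 21.7, 22.6 and 17.8 at W5, 31.0, 33.7 and 38.8 at W6, 43.3, 51.0 and 47.4 at W7 and 49.5, 46.3 and 48.9 at W8. All densities up to W7 were in order without overlap (1.55 ± 0.12 on the log2 scale, SE, adjusted p = 2.41e-07). AT3G15630 rose by 1.52 ± 0.20 (log2, SE, adjusted p = 0.00041), with an adjusted p of 0.0737 when W6 and mock were fitted alone and 80% of exon bases its own.

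**Figure D4:**
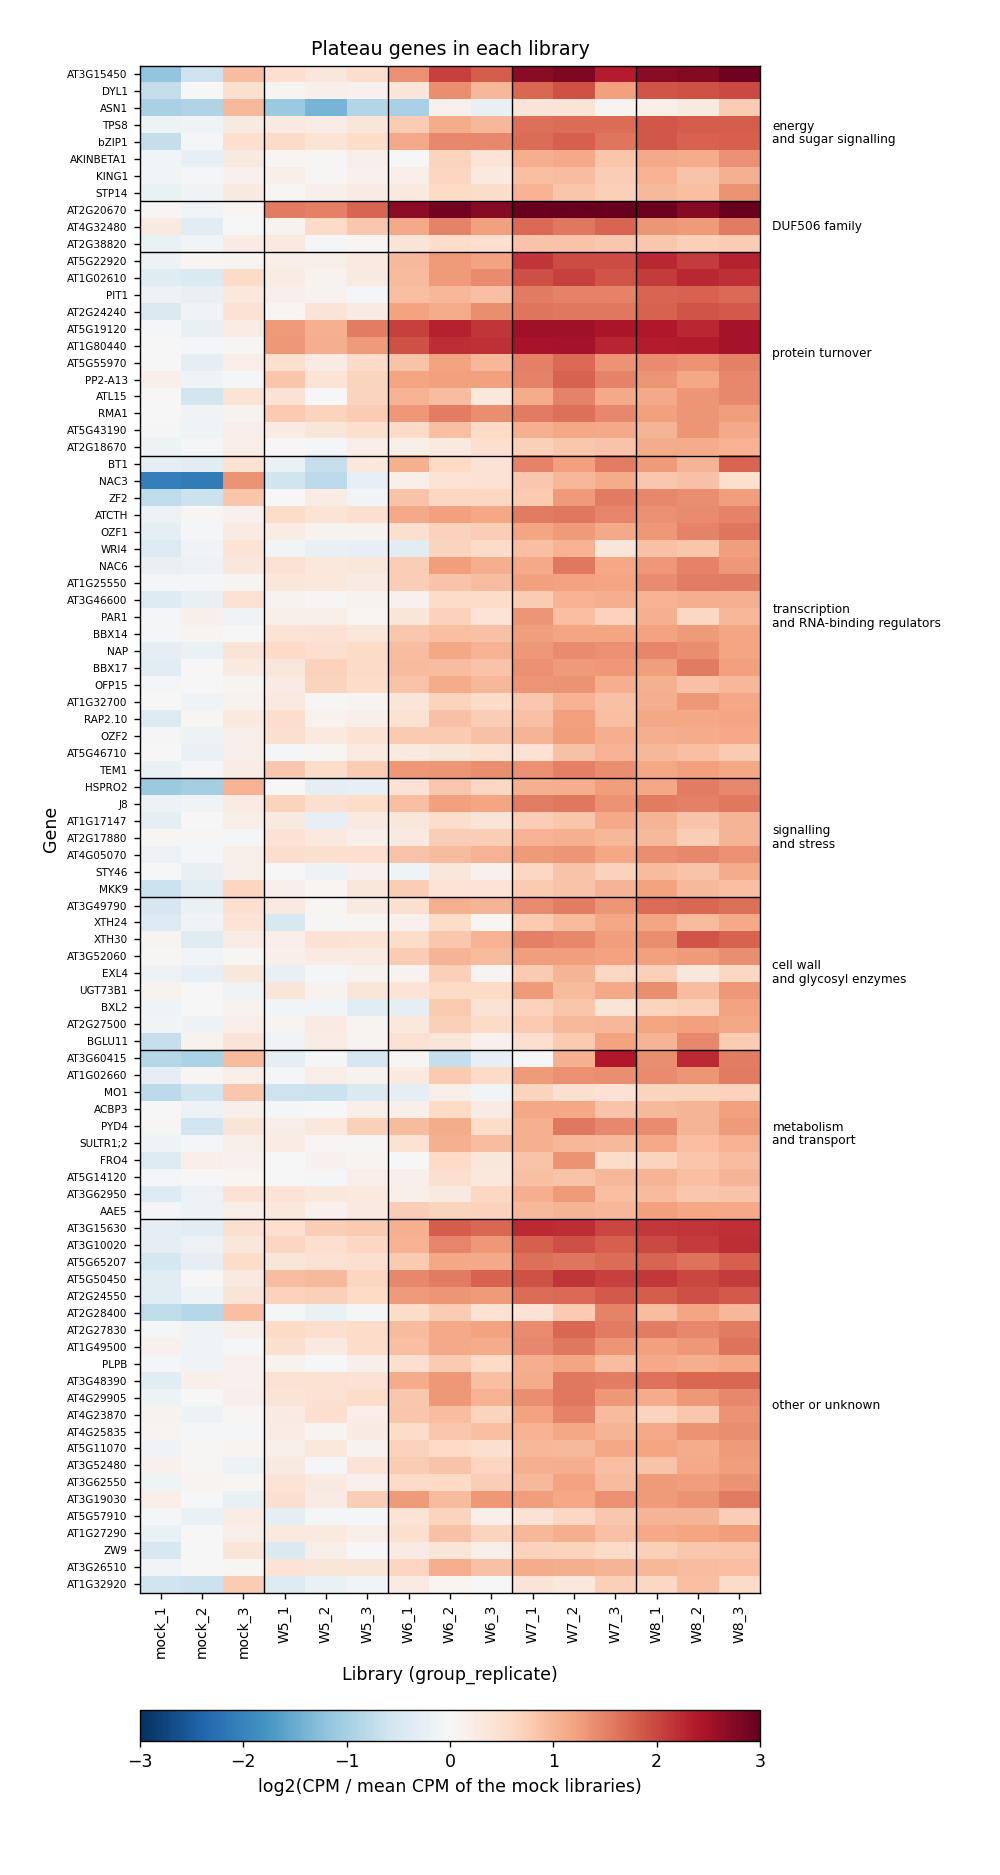
Rows are the 90 plateau genes and columns the 15 libraries, and colour is log2(CPM / mean CPM of the mock libraries), with the scale ending at 3 on either side of 0. The colour deepens from W5 through W6 to W7 and W8, and mock replicate 3 stands above mock replicates 1 and 2 in 76 rows.

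W6 lay between W5 and W7 in mean level in 89 of the 90 genes, and below W5 in AT3G60415. The choice set W7 above W5, so this count is a description only. The share of all genes with this order is not given here. As a description on the log2 scale, the share of the W5 to W7 difference already present at W6 had a median of 55.5% and quartiles of 46.7% and 61.9%. It was past 50% in 56 genes. The lowest were AT3G60415 (-1.62%), AT3G62950, a thioredoxin superfamily gene (4.19%), and STY46 (17.8%). The highest were AT3G19030 (89.3%), TEM1 (88.2%), RMA1 (83.6%) and SULTR1;2 (80.6%).

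The median log2 level of the plateau genes relative to the mock mean was 0.24, 0.22 and 0.26 in the W5 libraries. It was 0.67, 0.86 and 0.73 at W6, 1.11, 1.224 and 1.16 at W7, and 1.19, 1.26 and 1.28 at W8. In mock replicates 1, 2 and 3 it was -0.16, -0.11 and 0.21, so that mock replicate 3 stood just below the W5 libraries. In the 36 genes that did not pass at W6, mock replicate 3 was above both other mock libraries in 33, and in the 54 that passed in 43. The median log2 excess of mock replicate 3 over the mean of the other mock libraries was 0.64 and 0.28 in those sets. The calls that divide these sets used mock replicate 3 themselves, so these values are a description only. The part of mock replicate 3 in the calls was tested only by leaving it out, as given above.

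The other comparisons shared W5, W7 or W8 libraries with the choice and are given as description only. Against mock, 14 plateau genes were called higher at W5, where 0.165% of all genes were, and 22 without mock replicate 3. W5 and W6 were compared with the same mock libraries. The 14 included AT2G20670, AT1G80440, AT5G19120, TEM1, RMA1, ATCTH and BBX14. The W5 mean was above the mock mean in 75 genes and below in 15. Against mock, 80 were called higher at W7 (background 6.29%) and 84 at W8 (background 18.5%), and without mock replicate 3 these were 89 and 90. The background shares at W5, W7 and W8 are those of the fit with all libraries. None is given for the fit without mock replicate 3, so its counts have no share beside them. Between densities, 30 were called higher at W6 than at W5 (background 0.273%) and 37 at W7 than at W6 (background 1.59%).

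The step from W7 to W8 is small by the choice, and the libraries show how closely it was measured. The log2 ratio ran from -0.29 to 0.30 with a median of 0.098, and was above 0 in 63 genes and below 0 in 27. W7 and W8 libraries overlapped in 63 genes, all W8 libraries were above all W7 libraries in 19, and all were below in 8. The share of all genes with these orders is not given here. In the edgeR test of W8 against W7, 1 plateau gene was called higher and 3 lower, where 1318 and 1032 of all genes tested were. As the choice limits this step, these counts are a description only. The median SE of this step was 0.12, and the estimate plus or minus 2 SE reached past 0.3 on either side in 69 genes, so for these a change of more than 0.3 lies within the error.

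Genes with the same rise from W5 to W7 but another course to W8 give the setting. A further 264 genes met the limits on level, on the W7 to W5 ratio and on the order of the libraries, and were at least 0.3 higher again at W8, and 12 were at least 0.3 lower. In W6 against mock, 20 of the 264 (7.58%) were called higher, with a median log2 fold change of 0.01. Of the 12, 6 (50%) were called higher, with a median of 1.18. Without mock replicate 3 these were 56 of the 264, with a median of 0.44, and 7 of the 12, with a median of 1.63, beside 67 of the plateau genes and 0.86. Over all genes tested, leaving out that library raised the calls, higher or lower, from 249 to 469. The share of the W5 to W7 difference present at W6 had a median of 35.9% in the 264 and 70.02% in the 12, against 55.5% in the plateau genes. TATCCA was found in 26.5% of the 264, and TTGACT in 39%, against 32.2% and 16.7% of the plateau genes. TGACG was found in 31.1% of the 264 and in 31.1% of the plateau genes. These sets were divided by their W8 values, and the differences between them were not tested.

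Genes known from sugar starvation and from defence were followed through the same steps. Of 26 sugar starvation and SnRK1 markers, 25 were tested and 8 were plateau genes: AT3G15450, AT2G20670, KMD1, ASN1, DYL1, TPS8, AKINBETA1 and bZIP1. In W6 against mock, 8 of the 25 rose (11 without mock replicate 3), with a median log2 fold change of 0.66, and 4 of those that rose were plateau genes, namely AT2G20670, KMD1, TPS8 and bZIP1. In the list, 17 genes had a log2 ratio of W7 to W5 of at least 0.7, and 9 of them were at least 0.3 higher again at W8. With the limits on mean level and library order as well, 8 of the list were higher again. BT2, a relative of BT1, had 3.97 for W7 to W5 and 0.86 for W8 to W7, and SEN1, a dark-inducible gene, 1.97 and 0.32. DIN10 had 1.38 and 0.39, and TPS11 1.66 and 0.49. The list was drawn up with earlier results of these libraries known, so its direction is not independent evidence.

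Of the senescence list, 2 of 9 genes tested were plateau genes, NAP and NAC6, and these were the 2 called at W6, where 3 of the list were called without mock replicate 3. None of the other lists held a plateau gene. Of 20 pattern-triggered immunity genes, 11 had a W7 to W5 ratio of at least 0.7, and all 11 were at least 0.3 higher again at W8. The same held for 19 of 27 salicylic acid and systemic resistance genes, all 19 higher again at W8, for 13 of 17 cysteine-rich and wall-associated receptor kinases, all 13 higher again, and for 6 of 9 glutathione transferases, all 6 higher again. These counts set no limit on mean level or on the order of the libraries. With both limits, 6, 9, 6 and 4 genes of these 4 lists were higher again at W8. In W6 against mock edgeR called 0 of the 72 tested genes of these 4 lists, with 4 higher and 6 lower at an unadjusted p under 0.05, and DESeq2 called 2 higher and 0 lower. Among all genes tested, edgeR called 0.943% higher and 0.34% lower, so 0 calls in a set of this size is near the background. No such share is given for the unadjusted counts, here or for all 7 lists below. Without mock replicate 3 edgeR called 1 higher, of the pattern-triggered immunity list. The median log2 fold changes of the first 3 lists were -0.08, -0.27 and -0.39 with all libraries, and 0.33, 0.32 and 0.01 without mock replicate 3. Of the endoplasmic reticulum folding genes 1 of 13 passed 0.7, of the nitrate genes 1 of 5 and of the clock genes 0 of 11, and edgeR also called 0 genes of these lists at W6, though without mock replicate 3 it called 2 clock genes lower. Over all 7 lists with 0 calls, 5 genes were higher and 11 lower at an unadjusted p under 0.05, and DESeq2 called 2 higher and 3 lower.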

How the data were processed

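RNA-seq was done on 15 libraries, 3 for each of 5 groups, taken from the labels. The authors deposited raw counts per gene, not normalised, in a single table. The tools cutadapt 1.9.1 and featureCounts 1.22.2 and the TAIR10 build are named in the submitters' processing notes. Which aligner, annotation release or strand setting they used is not given in the sources used here. How reads of overlapping genes were counted is therefore not known. A gene that has less than 95% of its exon bases to itself is called uncertain. This applied to 13 plateau genes, 7 of them called at W6. Of 32833 genes, 32548 matched RefSeq TAIR10.1, the source of names and promoter sequences.

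From the counts, CPM by library total gave the levels and the choice of the plateau genes. Tests were run in R 4.3.3 with edgeR 4.0.16 (filterByExpr with minimum count 10 and minimum total 15, TMM scaling, glmQLFit with robust=TRUE, 1 mean per group over 15 libraries), with Benjamini-Hochberg adjustment over 19404 genes and a threshold of 0.05. A fold change is log2, with SE the absolute value divided by the square root of F. The fit was also run on simulated counts, with changes only in genes of higher counts and no mock library standing apart. That check does not cover genes of low counts or mock replicate 3. Alternatives were DESeq2 1.42.0, RLE scaling, no filter, robust=FALSE, a replicate block, a fit of 2 groups and leaving out libraries.

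The plateau genes and the gene lists were chosen with earlier results of these data known, and the role groups were assigned from the annotation after the values were seen. The genes named were the 12 with the largest W7 to W5 ratio, the 12 with the smallest p at W6, the 8 with the highest mean level and all in a list. Other genes were named by role after their values were seen. Replicates are pools of plants from different boxes.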

Additional observations from a re-analysis of the deposited data

How the results depend on the processing

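Leaving out 1 library at a time, the plateau genes called higher at W6 numbered 46 to 67 and those lower 0 to 0, with a median log2 fold change of 0.65 to 0.86. The counts were 73 to 89 at W7 and 80 to 90 at W8. Over all genes, 249 were called at W6, and 147 to 469 without 1 library: 156 without mock replicate 2, 469 without mock replicate 3, and 161 and 147 without W6 replicates 2 and 3. A fit of only the groups compared called 145 genes, 43 of them plateau genes. Without mock replicate 3 and W8 replicate 2, a setting chosen after seeing the data, 577 genes were called, 69 of them plateau genes, with a median of 0.86. The cause was not tested. RLE scaling, no filter and robust=FALSE each gave 54 plateau genes, and 41 genes were called in all 14 settings. Deviations of same-numbered libraries from their group means correlated at r from -0.30 to 0.32 over 30 pairs, 6 above 0.1. Libraries with different numbers were not compared, so whether the replicate numbers pair the libraries was not decided. With a replicate block 52 plateau genes were called at W6, 80 at W7 and 85 at W8, with a median of 0.73, and 230 genes in all, and AT2G38820 lost its call at W6 (adjusted p = 0.0591). The choice itself gave 36 genes with a W7 to W5 limit of 1, 55 with a W8 to W7 limit of 0.2, 87 with TMM-scaled CPM (82 shared) and 72 to 102 with 1 library left out. With 3 libraries a group, the SE of a step limits what a plateau means.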
